A study of Rattus norvegicus with 12 samples.

Results

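The subject is a set of 8 genes that make, move, break down and anchor the response to the inhibitory transmitter GABA in the rat brain, together with the chloride transporters on which that response depends: Gad1, Gad2, Abat, Slc32a1, Slc6a11, Gphn, Slc12a2 and Slc12a5. They were taken by name, as every non-control probe whose gene name in the scanner files was one of the 8. This gave 12 probes on 30 spots, out of 30367 probes for 26214 gene names on 42877 spots. All 12 probes passed the filter on dim signals, which kept 21533 probes. No probe gained or lost membership when the array's accessions were matched to the RefSeq gene table.

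The tissue was prefrontal cortex of female Sprague-Dawley rats taken on postnatal day 15 per the source names and descriptions (a developmental stage field of the labels reads otherwise), with 4 animals in each of 3 groups. The betamethasone with ketamine group came from dams given betamethasone (0.4 mg/kg, 2 injections) on gestational day 15, and the pups received ketamine (35 mg/kg) on postnatal day 14. The betamethasone group had the same prenatal drug and postnatal saline. The control group had saline at both times. Betamethasone is a synthetic glucocorticoid that crosses the placenta, and ketamine blocks NMDA-type glutamate receptors. The labels name infantile spasms for the animals given the postnatal injection without saying in which groups they occurred. Litters had been culled to females, and the litter of each animal is not given.

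GABA is made from glutamate by the decarboxylases GAD67 (Gad1) and GAD65 (Gad2) and is packed into synaptic vesicles by the vesicular transporter VGAT (Slc32a1). It is cleared partly by the transporter GAT3 (Slc6a11), which in cortex is found mainly on astrocytes, and is broken down by GABA transaminase (Abat). Gephyrin (Gphn) is the scaffold that holds GABA-A and glycine receptors at inhibitory synapses. Whether GABA inhibits depends on cell chloride, which NKCC1 (Slc12a2) brings in and KCC2 (Slc12a5) takes out, and in rodent cortex the ratio of the KCC2 to the NKCC1 transcript climbs over the first postnatal weeks.

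Every value below is a normalized log2 intensity of 1 probe, or a difference between such values. An array intensity depends on the probe as well as on the transcript, so levels are compared between samples for the same probe and not between probes. Animals were hybridized as same-group pairs, 2 to each of the 6 arrays: animals 1 and 3 of a group were labelled with Cy3, animals 2 and 4 with Cy5. The 4 arrays of the betamethasone with ketamine and betamethasone groups shared 1 slide and the 2 control arrays lay on another, and in either comparison with control the slide cannot be told apart from the group. The version of the image extraction software, per the file headers, also differed between the slides. Between 71.4% and 81.5% of spots per sample were well above background and none was saturated. The median local background in Cy3 was 16 to 17 on the control slide and 57 to 61 on the other. In Cy5 it was 33 to 35 and 37 to 38. On the array of betamethasone with ketamine 1 and 2, 4.5% of spots lay in areas that departed from the other arrays, with a median departure of -0.63 on the log2 scale. The control array of animals 3 and 4 had 0.821% of spots in such areas, with a median departure of 0.34. That of animals 1 and 2 had 0.212%, with a median of -0.01, and the other 3 arrays had none. In a principal component analysis of the tested probes, the first component held 43% of the variance. Betamethasone with ketamine 1 and 2 lay at 57.7 and 55.57 on it, and all other samples between -21.17 and -7.27. The arrays of betamethasone with ketamine differed by 0.51 for Gad1 A_64_P084971, 0.54 for Gad2 and 0.41 for Slc32a1, probes outside these areas. For Abat they differed by 0.11 and for Slc12a5 A_42_P589025 by 0.05. The cause was not tested.

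The probes are 60 bases long. Those printed here are 1 single-spot probe for each of 7 genes, all with at least 1 reading frame free of stop codons, shown because probes of related genes must differ if they are to be told apart (rn4 build, sequences from the deposited scanner files, 5′ to 3′ along the transcript). Capitals mark the longest run that the probe shares with a probe of any of the other 7 genes. Over the 12 probes this run was 7 to 9 bases long.
Gad1, chr3:52813028-52813087, + strand: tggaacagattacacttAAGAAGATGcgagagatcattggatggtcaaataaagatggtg
Gad2, chr17:96321562-96321621, + strand: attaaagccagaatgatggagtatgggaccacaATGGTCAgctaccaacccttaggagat
Abat, chr10:7047983-7048042, - strand: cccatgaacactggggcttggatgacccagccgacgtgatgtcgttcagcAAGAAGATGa
Slc6a11, chr4:150195271-150196078, + strand: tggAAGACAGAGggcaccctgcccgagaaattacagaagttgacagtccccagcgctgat
Gphn, chr6:101301993-101302052, + strand: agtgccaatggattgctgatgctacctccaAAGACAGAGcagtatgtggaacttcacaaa
Slc12a2, chr18:53736914-53736973, + strand: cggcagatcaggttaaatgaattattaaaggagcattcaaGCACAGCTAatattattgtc
Slc12a5, chr3:156035392-156035451, + strand: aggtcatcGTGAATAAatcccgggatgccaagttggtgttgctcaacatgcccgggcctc
The Slc6a11 probe spans 808 bases of genome and so crosses an intron, while the other 6 match 1 unbroken stretch. Slc32a1 was read by 1 probe at chr3:149347048-149347107. Gad1 had a second probe at chr3:52829951-52830010 and Gphn at chr6:101302157-101302216. Slc12a2 and Slc12a5 each had a second probe that was printed 10 times on the array, at chr18:53741021-53741080 and chr3:156037850-156037909. An annotation of the rn4 build was not used here, so exons and untranslated regions are not assigned.

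None of the 12 probes passed the test in any of the 3 comparisons (limma with the array as a random block, Benjamini-Hochberg adjusted p under 0.05 over 21533 probes). For betamethasone against control, 0.158% of all probes passed, and the smallest adjusted p among the 12 was 0.409. With ketamine added, against betamethasone alone, 0% of all probes passed, and the smallest adjusted p among the 12 was 0.909. In betamethasone with ketamine against control, 0.0697% passed, and the smallest among the 12 was 0.447. An unadjusted p under 0.05 was reached by 1 of the 12 probes (Gad1) in betamethasone against control, where 11.4% of all probes reached it. None of the 12 reached it in betamethasone with ketamine against betamethasone (3.11% of all probes) or against control (13.2%). These p-values measure only the spread between the animals and arrays sampled, and the animals of an array also share their hybridization.

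The changes of the 12 probes lay around 0. Betamethasone against control had 5 probes higher and 7 lower; their log2 changes had a median of -0.10 and ran from -0.34 to 0.26. Over all tested probes the median was 0.01 and 52.4% were above 0. In betamethasone with ketamine against betamethasone 8 were higher and 4 lower, with a median of 0.10, beside a median of 0.05 and 64% above 0 over all probes. In betamethasone with ketamine against control 6 were higher and 6 lower, with a median of 0.01, beside 0.06 and 61.3% above 0 over all probes. The 3 comparisons share samples and are not independent of each other. The 95% interval of a typical probe on this array reached 0.32 log2 units to either side of its estimate.

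**Figure D1:**
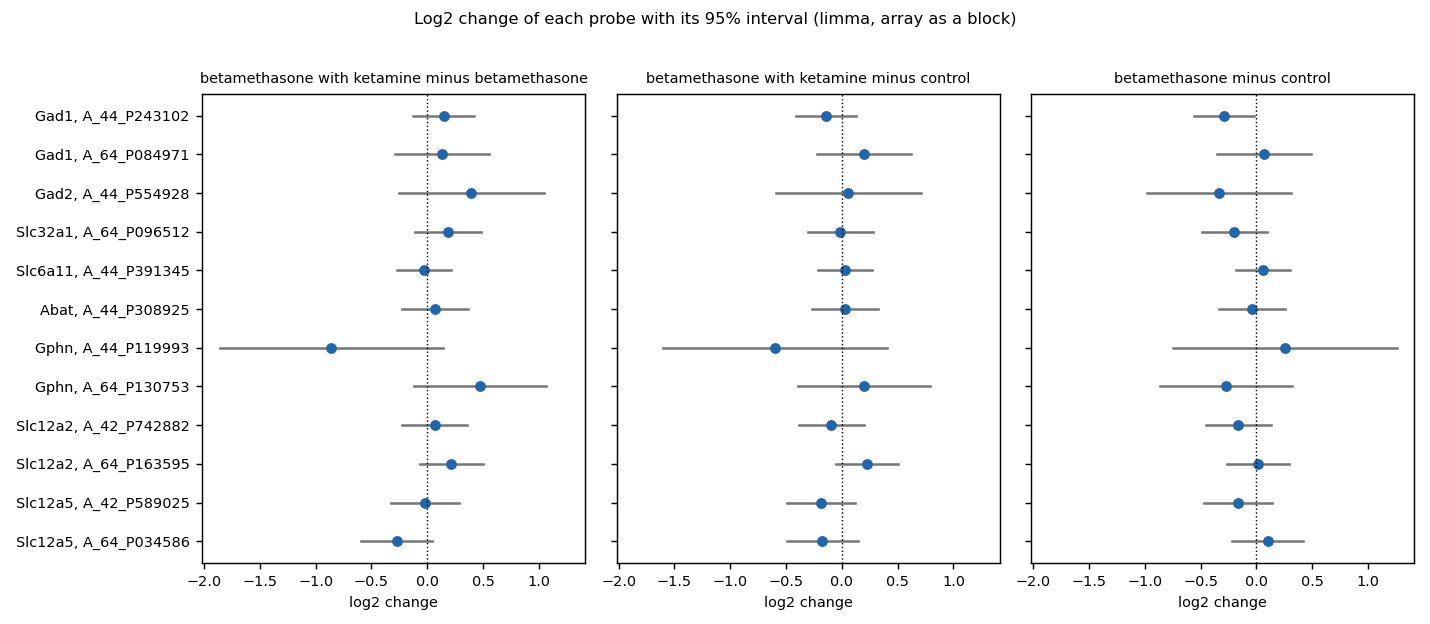
Log2 change of each of the 12 probes (x axis) with its 95% interval from limma, in betamethasone with ketamine minus betamethasone, betamethasone with ketamine minus control, and betamethasone minus control. All intervals include 0 except that of the dim Gad1 probe in betamethasone minus control, and those of Gphn A_44_P119993 are the widest.

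Of the genes that make GABA, Gad1 was read by a bright and a dim probe. The bright probe (A_64_P084971) read 13.41, 13.55, 12.85 and 13.09 in betamethasone with ketamine 1 to 4. It read 13.21, 13.00, 13.19 and 12.97 in betamethasone 1 to 4, and 12.92, 13.18, 13.05 and 12.96 in control 1 to 4. The groups overlapped, and the animals on the array with the dim areas, betamethasone with ketamine 1 and 2, were the highest of the 12. The bright probe's log2 change was 0.06 in betamethasone against control (95% interval -0.36 to 0.49), 0.13 in betamethasone with ketamine against betamethasone (-0.29 to 0.55) and 0.20 against control (-0.23 to 0.62). With only the array medians set equal after loess, the first of these came to 0.54 and the sign of the next was turned, to -0.45.

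The dim Gad1 probe (A_44_P243102) gave the single unadjusted p under 0.05. It read 7.87, 7.91, 7.72 and 7.90 in betamethasone with ketamine 1 to 4. In betamethasone 1 to 4 it read 7.56, 7.89, 7.57 and 7.81, against 7.91, 7.86, 8.04 and 8.16 in control 1 to 4. The betamethasone and control values overlapped, since betamethasone 2 lay above control 2. The log2 change was -0.29 in betamethasone against control (SE 0.12, 95% interval -0.56 to -0.02, unadjusted p 0.0383 and adjusted p 0.409 by limma). The probe was well above background in 3 of 4 betamethasone samples and in all samples of the other groups. Both dyes gave a lower value in betamethasone, by a difference of -0.41 in Cy3 and -0.16 in Cy5. The bright probe of the same gene gave differences of 0.21 and -0.08. In Cy3 the raw signal of the dim probe was close to background in betamethasone: 74.48 over 63 in animal 1 and 69.94 over 55 in animal 3. In control 1 and 3 it was 144.7 over 15 and 142.6 over 17.5. Between the remaining groups the dim probe changed by 0.15 in betamethasone with ketamine against betamethasone (-0.12 to 0.42) and by -0.14 against control (-0.41 to 0.13). The estimate in betamethasone against control was larger with array medians only (-0.72) and with 75th percentile scaling (-0.99), and did not pass there either. The largest estimate in betamethasone with ketamine against betamethasone was 1.06, with 75th percentile scaling, and did not pass.

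Gad2, the isoform that makes GABA near nerve terminals, read 11.27, 10.84, 10.64 and 10.38 in betamethasone with ketamine 1 to 4. It read 10.17, 10.59, 10.16 and 10.63 in betamethasone 1 to 4 and 10.89, 10.59, 10.89 and 10.52 in control 1 to 4. The lowest values were those of betamethasone 1 and 3, both in Cy3, and the groups overlapped. In betamethasone against control the log2 change was -0.34 (SE 0.29, 95% interval -0.98 to 0.31, adjusted p 0.730 by limma), the lowest of the 12 probes in that comparison. Within the dyes the difference was -0.72 in Cy3 and 0.05 in Cy5. In betamethasone with ketamine against betamethasone it was 0.39 (-0.25 to 1.04), made of a difference of 0.79 in Cy3 and 0.002 in Cy5. Against control, betamethasone with ketamine differed by 0.06 (-0.59 to 0.71). Each group held 2 samples of each dye, so a dye effect common to all arrays cancels in these differences. With only the array medians set equal after loess, the changes were -0.06 in betamethasone against control and -0.02 in betamethasone with ketamine against betamethasone. Betamethasone had the lowest mean of the 3 groups, and the 95% interval of each difference between groups included 0.

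Abat, which encodes the enzyme that breaks GABA down, was among the least variable of the 12 probes. Its means were 9.41 ± 0.084 in betamethasone with ketamine, 9.34 ± 0.097 in betamethasone and 9.38 ± 0.14 in control (SD, n = 4 each). All samples lay between 9.19 and 9.50, and the groups overlapped. Its log2 change was -0.04 in betamethasone against control (95% interval -0.34 to 0.25), 0.07 in betamethasone with ketamine against betamethasone (-0.22 to 0.37) and 0.03 against control (-0.27 to 0.32). Over the 3 comparisons the interval bounds correspond to ratios of 0.791 and 1.29. Under the alternatives the changes ran from -0.19 to 0.20, -0.11 to 0.31 and -0.04 to 0.19, each with both signs.

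Slc32a1, the vesicular GABA transporter, read 13.79, 14.17, 13.38 and 13.75 in betamethasone with ketamine 1 to 4. It read 13.51, 13.76, 13.43 and 13.65 in betamethasone 1 to 4 and 13.54, 13.99, 13.71 and 13.90 in control 1 to 4. The means were in the order control (13.79 ± 0.20), betamethasone with ketamine (13.77 ± 0.32) and betamethasone (13.59 ± 0.15), and all 3 groups overlapped (SD, n = 4 each). The estimated log2 change was -0.20 in betamethasone against control (95% interval -0.49 to 0.09), 0.19 in betamethasone with ketamine against betamethasone (-0.11 to 0.48) and -0.01 against control (-0.31 to 0.28). The sign in betamethasone against control was the same in both dyes (-0.16 in Cy3 and -0.24 in Cy5), and it was turned under 3 alternatives, to 0.28 with array medians only, 0.01 with 75th percentile scaling and 0.0067 with Agilent's processed signals. With array medians only, the change in betamethasone with ketamine against betamethasone was turned to -0.41.

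Slc6a11, the GABA transporter of astrocyte processes, varied least of the 12 probes, with an SD of 0.087 over the 12 samples. Its means were 8.09 ± 0.11 in betamethasone with ketamine, 8.12 ± 0.094 in betamethasone and 8.06 ± 0.068 in control (SD, n = 4 each). All samples lay between 7.97 and 8.22, and the groups overlapped. The probe was dim. In the Cy3 samples of betamethasone and betamethasone with ketamine its raw signal was 103.9 to 160.4, over local backgrounds of 62 to 68. The small spread is thus that of a dim signal with an offset of 50 added. The log2 change was 0.06 in betamethasone against control (95% interval -0.18 to 0.30), -0.03 in betamethasone with ketamine against betamethasone (-0.27 to 0.21) and 0.03 against control (-0.21 to 0.27). The bounds correspond to ratios of 0.828 and 1.23, and hold for this normalization only: under the alternatives the changes ran from -0.48 to 0.32, -0.12 to 0.77 and -0.06 to 0.28, each with both signs.

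**Figure D2:**
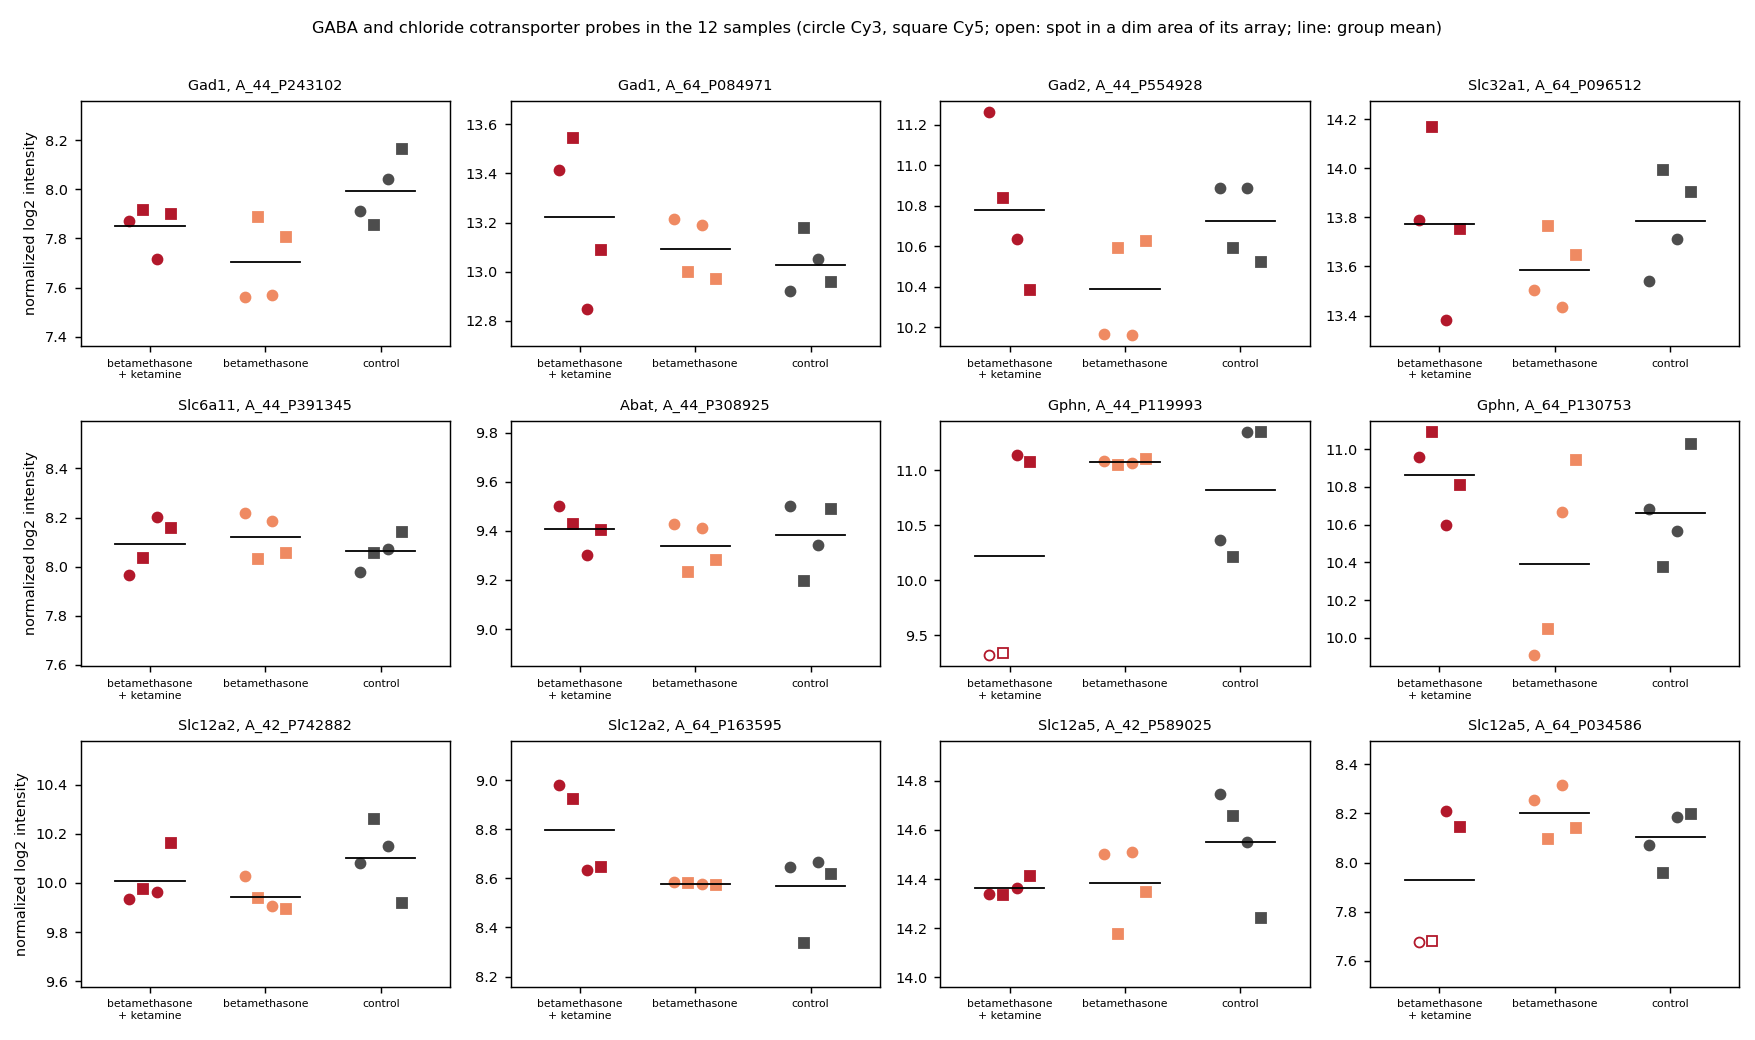
Normalized log2 intensity (y axis) of the 12 probes in each sample of the betamethasone with ketamine, betamethasone and control groups, each panel on its own axis. Circles are Cy3 and squares Cy5, open symbols are spots inside a dim area of their array, and lines are group means. Gphn A_44_P119993 and Slc12a5 A_64_P034586 are low in betamethasone with ketamine 1 and 2, whose spots lie in such an area.

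Gphn, the scaffold at inhibitory synapses, had the widest spread, and its 2 probes differed in sign in every comparison. The probe A_44_P119993 read 9.32, 9.34, 11.14 and 11.07 in betamethasone with ketamine 1 to 4. It read 11.08, 11.04, 11.07 and 11.10 in betamethasone 1 to 4 and 10.36, 10.21, 11.34 and 11.35 in control 1 to 4. The values fell into pairs by array: the animals of an array lay close together, while the arrays of a group differed by 1.78 in betamethasone with ketamine, 0.02 in betamethasone and 1.06 in control. The low pair in betamethasone with ketamine came from spots inside a dim area of that array, and the low control pair did not. The log2 change of this probe in betamethasone with ketamine against betamethasone was -0.86 (SE 0.45, 95% interval -1.86 to 0.14, adjusted p 0.909 by limma), and it was 0.03 with the spots in such areas left out, which leaves 2 samples in the betamethasone with ketamine group. In betamethasone with ketamine against control it was -0.60 (-1.60 to 0.40) and 0.29 without those spots. Between betamethasone and control it was 0.26 (-0.74 to 1.26).

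The other Gphn probe (A_64_P130753) lies a short distance before the first one on the same strand and showed no dim pair in betamethasone with ketamine, with 10.96, 11.09, 10.60 and 10.81. It read 9.91, 10.04, 10.67 and 10.94 in betamethasone 1 to 4 and 10.69, 10.37, 10.57 and 11.03 in control 1 to 4. Here the low pair was betamethasone 1 and 2, which share an array, and the arrays of that group differed by 0.83. Its log2 change was -0.27 in betamethasone against control (95% interval -0.86 to 0.32), 0.47 in betamethasone with ketamine against betamethasone (-0.12 to 1.07) and 0.20 against control (-0.39 to 0.79). Neither probe gives a call for gephyrin at this spread.

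The chloride importer Slc12a2 (NKCC1) was read by a probe of 10 spots and a probe of 1. The 10-spot probe (A_42_P742882) read 9.94, 9.97, 9.97 and 10.16 in betamethasone with ketamine 1 to 4. It read 10.03, 9.94, 9.91 and 9.90 in betamethasone 1 to 4 and 10.08, 10.26, 10.15 and 9.92 in control 1 to 4. The groups overlapped, with control the highest mean and betamethasone the lowest. The estimated log2 change was -0.16 in betamethasone against control (95% interval -0.45 to 0.13), 0.07 in betamethasone with ketamine against betamethasone (-0.22 to 0.36) and -0.09 against control (-0.38 to 0.20). With array medians only, betamethasone against control was turned to 0.05 and betamethasone with ketamine against betamethasone to -0.23. Between 6 and 10 of the spots entered each value, and their SD was 0.11 in the median sample.

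The 1-spot Slc12a2 probe (A_64_P163595) was the only probe of the 12 with groups that stood apart, in betamethasone with ketamine against betamethasone. It read 8.98, 8.92, 8.64 and 8.65 in betamethasone with ketamine 1 to 4, against 8.59, 8.58, 8.58 and 8.57 in betamethasone 1 to 4. The lowest betamethasone with ketamine value lay above the highest betamethasone value, and 1 of 12 probes stood so where 4.06% of all probes did. The log2 change was 0.22 (SE 0.13, 95% interval -0.06 to 0.50, adjusted p 0.909 by limma). With 75th percentile scaling it was 0.65, and did not pass. The betamethasone values had an SD of 0.0061, the smallest of any probe of the set in any group, whereas the arrays of the betamethasone with ketamine group differed by 0.31. Controls 1 to 4 read 8.65, 8.34, 8.67 and 8.62, so betamethasone with ketamine differed from control by 0.23 (-0.05 to 0.51) and betamethasone from control by 0.01 (-0.27 to 0.29). In betamethasone against control none of the 12 probes had groups apart, where 17.6% of all probes did, and in betamethasone with ketamine against control none did, where 14.9% of all probes did.

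The chloride exporter Slc12a5 (KCC2) is made by mature neurons. Its 10-spot probe (A_42_P589025) read 14.34, 14.34, 14.36 and 14.41 in betamethasone with ketamine 1 to 4. It read 14.50, 14.18, 14.51 and 14.35 in betamethasone 1 to 4 and 14.75, 14.66, 14.55 and 14.24 in control 1 to 4. The betamethasone with ketamine animals lay within 0.08 of each other, below 3 of the 4 controls and above control 4. Its log2 change was -0.16 in betamethasone against control (95% interval -0.47 to 0.14), -0.02 in betamethasone with ketamine against betamethasone (-0.33 to 0.29) and -0.19 against control (-0.49 to 0.12). For betamethasone against control the sign was turned, to 0.06, under scaling to the 75th percentile and, to 0.33, with only the array medians set equal after loess, which also moved betamethasone with ketamine against betamethasone to -0.61. The 10 spots of this probe were less alike than those of Slc12a2, with a median SD of 0.29 and a highest of 0.52. On the array of control 1 and 2, 1 spot had a local background of 2484 in Cy3 and 3379 in Cy5, against at most 70 elsewhere.

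The 1-spot Slc12a5 probe (A_64_P034586) read 7.67, 7.68, 8.21 and 8.14 in betamethasone with ketamine 1 to 4. It read 8.26, 8.10, 8.32 and 8.14 in betamethasone 1 to 4 and 8.07, 7.96, 8.19 and 8.20 in control 1 to 4. The low pair, betamethasone with ketamine 1 and 2, lay in a dim area of its array, like the low pair of the first Gphn probe. The log2 change in betamethasone with ketamine against betamethasone was -0.27 (SE 0.14, 95% interval -0.59 to 0.04), and it was -0.02 with such spots left out. Against control it was -0.17 (-0.49 to 0.14), and 0.07 with them left out. In betamethasone against control it was 0.10 (-0.22 to 0.41), the opposite sign to that of the 10-spot probe. That sign was turned, to -0.14 with array medians only and to -0.41 with 75th percentile scaling. The same alternatives turned betamethasone with ketamine against betamethasone to 0.21 and 0.63.

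The Slc12a5 to Slc12a2 balance was taken for each animal as the log2 intensity of the 10-spot Slc12a5 probe minus that of the 10-spot Slc12a2 probe, and is given relative to the control mean, because the absolute difference of 2 probes has no meaning as a transcript ratio. It was -0.04, -0.08, -0.05 and -0.20 in betamethasone with ketamine 1 to 4. It was 0.03, -0.21, 0.16 and 0.01 in betamethasone 1 to 4, and 0.22, -0.05, -0.05 and -0.12 in control 1 to 4. All 4 betamethasone with ketamine animals lay below the control mean but inside the range of the controls or, for animal 4, below it, and the groups overlapped.

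The means were -0.09 ± 0.071 in betamethasone with ketamine, -0.004 ± 0.15 in betamethasone and 0 ± 0.15 in control (SD, n = 4 each). Betamethasone and control differed by -0.004 (95% interval -0.23 to 0.22), which is a ratio of 0.997 with an interval of 0.853 to 1.17 (exact two-sided permutation test, p 0.943). The intervals in this paragraph came from limma with the array as a block, and the p-values from permutations of the animals, which do not take the array into account. Betamethasone with ketamine differed from betamethasone by -0.09 (-0.32 to 0.14), a ratio of 0.940 with an interval of 0.804 to 1.099 (exact p 0.314). It differed from control by -0.09 (-0.32 to 0.13), a ratio of 0.937 with an interval of 0.801 to 1.096 (exact p 0.429). Adjusted over the 3 comparisons the p-values were 0.943, 0.643 and 0.643, and the smallest p that the permutations of 4 against 4 allow is 0.0286. With each array's animals averaged the design cannot go below 0.333.

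**Figure D3:**
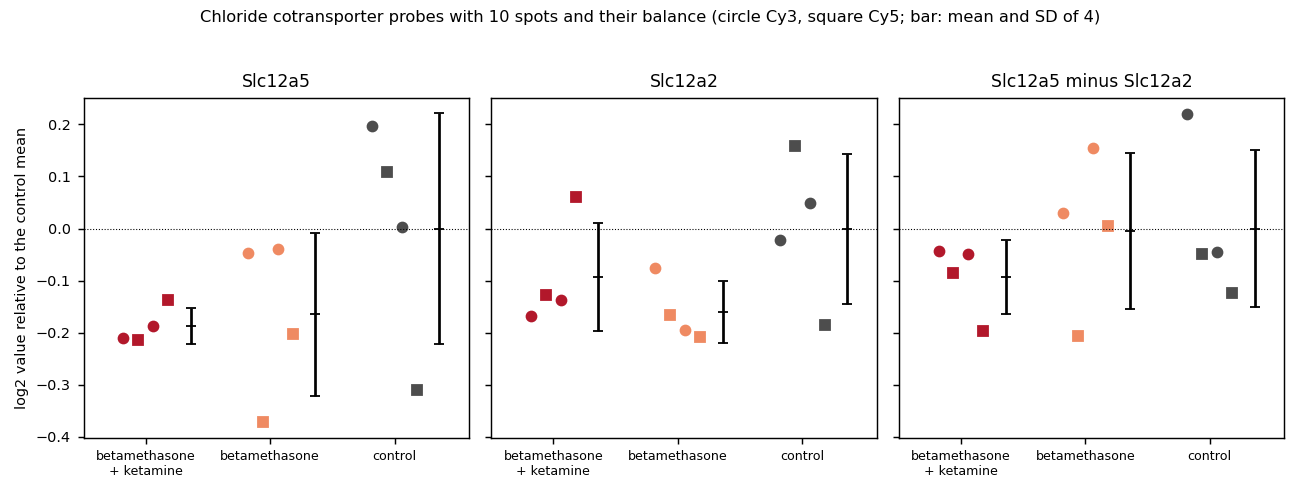
Log2 value relative to the control mean (y axis) of the 10-spot Slc12a5 probe, the 10-spot Slc12a2 probe and their difference in the animals of the betamethasone with ketamine, betamethasone and control groups; circles are Cy3, squares are Cy5 and bars are the mean and SD of 4. The groups overlap in all 3 panels, and betamethasone with ketamine has the smallest spread in the balance (SD 0.071).

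The balance moved with the probes and with the normalization used. With the 1-spot probes of both genes, betamethasone with ketamine differed from betamethasone by -0.49 and from control by -0.40, and the Slc12a5 spots of 2 of its animals were those in the dim area. With the 10-spot Slc12a5 and the 1-spot Slc12a2 probe, neither of which lay there, the differences were -0.24 and -0.42, and betamethasone differed from control by -0.18. With the 1-spot Slc12a5 and the 10-spot Slc12a2 probe, betamethasone differed from control by 0.26 and betamethasone with ketamine from betamethasone by -0.34. When only the array medians were set equal, or channels were scaled to the 75th percentile, betamethasone against control came to 0.28 in both. Taking the median of the 10 spots in place of their mean gave -0.19 for the same comparison. No alternative with a test gave an exact p under 0.05 in any comparison, and the lowest was 0.0571.

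**Figure D4:**
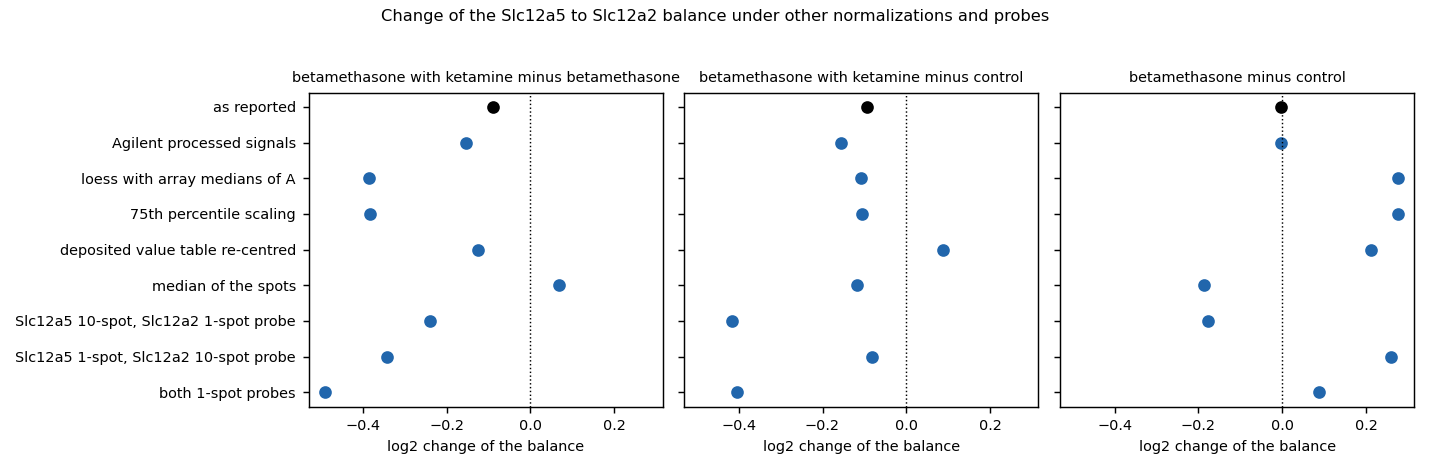
Change of the Slc12a5 to Slc12a2 balance on the log2 scale (x axis) as reported and under 5 other normalizations or summaries and 3 other probe pairs (y axis), in 3 comparisons. Betamethasone minus control runs from -0.19 to 0.28, on both sides of 0, and betamethasone with ketamine minus betamethasone from -0.49 to 0.07.

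The other genes of the pathway did not pass either. A list of 60 further genes covered GABA metabolism and transport, the inhibitory postsynapse, chloride transport and regulators of the chloride cotransporters, and 56 of them were tested. None passed in any comparison, where 8, 4 and 9 reached an unadjusted p under 0.05 in betamethasone against control, betamethasone with ketamine against betamethasone and betamethasone with ketamine against control. Over all probes the shares at that p were 11.4%, 3.11% and 13.2%, and the shares above 0 were 52.4%, 64% and 61.3%. Betamethasone against control had 24 higher and 32 lower, and a median change of -0.08. In betamethasone with ketamine against betamethasone 38 were higher and 18 lower, with a median of 0.07, and against control 29 were higher and 27 lower, with a median of 0.04. The smallest adjusted p was 0.107, that of Slc12a8, a member of the cation-chloride cotransporter family by sequence. Slc12a8 averaged 9.91 ± 0.099 in betamethasone and 10.64 ± 0.15 in control (SD, n = 4 each), a log2 change of -0.72.

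Among the other genes with small unadjusted p, Maob, a monoamine oxidase of astrocytes, averaged 10.44 ± 0.017 in betamethasone and 9.998 ± 0.14 in control (adjusted p 0.254 by limma). Nrxn2 and Nrxn3, presynaptic adhesion proteins, differed by 0.68 and 0.43 in betamethasone with ketamine against betamethasone (adjusted p 0.909 each by limma). Slc4a3, a chloride and bicarbonate exchanger, averaged 13.48 ± 0.23 in betamethasone with ketamine and 12.61 ± 0.49 in control (adjusted p 0.214 by limma). Cab39l, which encodes a partner of the kinases that act on the cotransporters, differed by 0.37 in the same comparison. Gabarapl2, a relative of the GABA-A receptor associated protein that works in autophagy, differed by -0.89 in betamethasone against control and by 1.09 in betamethasone with ketamine against betamethasone, with flagged spots left out (adjusted p 0.265 and 0.909 by limma). Stk39 encodes SPAK, the kinase that activates NKCC1 and inhibits KCC2. It averaged 10.23 ± 0.55 in betamethasone with ketamine and 10.97 ± 0.095 in control (adjusted p 0.294 by limma). Its probe lay in an area that departed from the other arrays in 2 samples. The probe of Wnk2, another kinase above the cotransporters, also lay in such an area in 2 samples.

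Markers of interneurons, the cells that make most cortical GABA, showed no common direction. Of 18 tested, 9 were higher and 9 lower in betamethasone against control, with a median log2 change of -0.02, and none passed. Their mean level, centred on the 12 samples, ranged from -0.08 to 0.05 in betamethasone with ketamine, -0.07 to 0.06 in betamethasone and -0.02 to 0.12 in control. In betamethasone with ketamine against betamethasone 9 were higher and 9 lower, with a median of -0.008, and against control 9 and 9, with a median of 0.02. The probes of Pvalb, Npy and Dlx1 lay in areas that departed from the other arrays in 2 samples each. Dlx1 changed by -1.59 in betamethasone with ketamine against betamethasone and so weighs on the mean level. In bulk tissue, fewer cells of a type and less RNA per cell cannot be told apart. Oligodendrocyte markers were lower in betamethasone than in control for 9 of 9 tested genes, with a median of -0.52, and none passed. Their mean level ranged from -0.43 to 0.25 in betamethasone with ketamine, -0.69 to 0.06 in betamethasone and 0.01 to 0.64 in control. Excitatory neuron markers (9 tested) ranged from -0.06 to 0.05 in betamethasone with ketamine, -0.07 to -0.004 in betamethasone and -0.12 to 0.17 in control. Astrocyte markers (9 tested) ranged from -0.02 to 0.26 in betamethasone with ketamine, -0.17 to 0.05 in betamethasone and -0.10 to -0.01 in control. Microglia markers (8 tested) ranged from 0.10 to 0.21 in betamethasone with ketamine, -0.05 to 0.04 in betamethasone and -0.31 to 0.03 in control. The first of these groups stood apart from the others. Of the 8, 7 were higher in betamethasone with ketamine than in betamethasone and 7 than in control, though not the same 7. None passed the threshold. Over all single probes, 4.06% and 14.9% had groups apart in these comparisons, and 64% and 61.3% were above 0. Endothelial markers (6 tested) ranged from -0.20 to -0.007 in betamethasone with ketamine, -0.002 to 0.21 in betamethasone and -0.30 to 0.15 in control. Gene by gene, 4 endothelial markers were higher and 2 lower in betamethasone with ketamine against betamethasone, with a median log2 change of 0.12. The lowest change there, -1.49, was that of Slco1c1, whose spots lay in an area that departed from the other arrays in 2 samples. The part of these cell types in the values of the 8 genes was not tested. Of the 10 listed excitatory neuron markers, 9 passed the filter on dim signals, among them the glutamate transporter gene Slc17a7 and the layer genes Tbr1 and Rorb, and the layer gene Fezf2 did not. Of 10 listed striatal markers 8 passed it.

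Likeness between genes across the samples was measured as the root mean square difference of the brightest probes over 12 samples, each centred on its own mean, among 13453 genes. For Slc12a2 the difference from Slc12a5 was 0.12, at rank 772. For Gad1 it was 0.321 from Gad2, at rank 10410, and 0.20 from Slc32a1, at rank 3903. The nearest genes were Ppp1cb and Prkcb for Gad2, Zcchc2 and Tuba3a for Slc32a1, Rcor3 and Cdk12 for Slc6a11, Irgm and Tm9sf4 for Abat, Phlpp1 and Acp1 for Slc12a2 and Sem1 and Arhgap35 for Slc12a5, with differences of 0.0423 to 0.113. For Gphn they were Wnk2 and Actl6b, at 0.166 and 0.185. The Wnk2 probe lay in an area that departed from the other arrays in 2 samples. For Gad1 the nearest genes were C16h19orf44 and T2, at 0.0724 and 0.0729. These are descriptions over samples that share arrays, and a probe with a small spread finds near neighbours easily.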

How the data were processed

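The per-array scanner files held spot intensity values in scanner units for 2 channels, per the file headers, from Agilent Feature Extraction. The headers give version 11.5.1.1 for the control slide and 11.0.1.1 for the slide of the other groups, and the submitters' processing notes name 10.7.3.1. The probe coordinates are on rn4. A deposited table of the authors gave a ratio for each spot (background-subtracted signal over the column median) and served as an alternative. In it the columns of control 1 and 2 matched the scanner data of control 3 and 4 and the reverse. Which numbering is right is not known, and control numbers here follow the scanner files. Groups are unaffected, but the replicate block and the same-number correlations rest on it.

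Mean signals were corrected with normexp against the median local background (offset 50), loess-normalized within each array, then set on common average intensities across arrays (Aquantile), and each channel was treated as a sample (limma 3.58.1, R 4.3.3). Outlier spots were left out and spots of a probe averaged. A probe had to be well above background in 3 or more of the 4 samples of some group. Tests used a dye term and the array as a random block (correlation 0.558), with Benjamini-Hochberg adjustment. Areas were masked where 20% of neighbouring spots departed by 1 log2 unit or more. The balance used exact permutation tests for its p-values, and the limma fit with the dye term and array block for its intervals.

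Members and gene lists were chosen with earlier results of these data known. Named genes were the 8 members with every probe, the 3 pathway genes with the smallest p per comparison and the 2 genes most like each member. Samples with the same replicate number did not deviate together (correlations of -0.07 to 0.09), so the numbers were not used as pairs. The number of arrays limits the precision.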

Additional observations from a re-analysis of the deposited data

Results flagged for a closer look

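In the 39 groups of 4 values checked (12 probes and the balance in 3 groups), 1 held a sample far from the others by Dixon's ratio, and chance gives about 1 in 20. It was the 1-spot Slc12a2 probe (A_64_P163595) in control, where control 2 read 8.34 and the other controls lay between 8.62 and 8.67.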

How the results depend on the processing

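No probe of the 8 genes passed the threshold under 29 of the 30 alternatives. Without the array of betamethasone with ketamine 3 and 4, which leaves the array with the dim areas alone in that group, 6 values passed: Gphn A_44_P119993 (-1.75 against betamethasone, -1.49 against control), Slc12a5 A_64_P034586 (-0.52 and -0.42), Slc12a2 A_64_P163595 (0.38 against control) and Slc32a1 (0.39 against betamethasone). Of 1065 recomputed changes, 84 had the other sign and 73 moved by more than the spread between replicates, 21 of these with array medians only. Scaling to the 75th percentile moved the median of all tested probes to -0.22, 0.35 and 0.17 in betamethasone against control, betamethasone with ketamine against betamethasone, and betamethasone with ketamine against control.

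In that order, the 34, 0 and 15 probes past the threshold became 101, 4 and 75 with Agilent processed signals, 75, 1 and 29 with no filter on dim probes, and 1001, 1 and 720 with no array block. The counts against control became 0 and 0 with array medians only or with 75th percentile scaling, 16 and 7 with the re-centred value table, 1 and 1 with array means as replicates, 13 and 7 with the replicate block, 60 and 24 with departing areas masked, and 232 and 2 with only the groups compared. The replicate block gave no call of the 8 genes. For the balance (-0.004, -0.09 and -0.09) its smallest possible p is 0.125, so no call could arise. Leaving out each sample or array gave 3 to 550, 0 to 2599 and 3 to 3151 probes, the upper ends without an array of betamethasone with ketamine. The cause was not tested.

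The balance changed by 0.28 and -0.38 in the first 2 comparisons with array medians only and by 0.28 and -0.38 with 75th percentile scaling. With the re-centred value table it was 0.21 in betamethasone against control and 0.087 in betamethasone with ketamine against control. With the median of the spots, chosen after seeing the data, it was -0.19 and 0.0682 in the first 2. The pair of 10-spot Slc12a5 and 1-spot Slc12a2 probes gave -0.18, -0.24 and -0.42. Both 1-spot probes gave -0.49 and -0.40 in the last 2, and the 1-spot Slc12a5 with the 10-spot Slc12a2 probe gave 0.26 and -0.34 in the first 2. Leaving out samples or arrays gave -0.09 to 0.08, -0.17 to -0.005 and -0.18 to -0.008. The dim Gad1 probe was not well above background in 1 betamethasone sample.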
